A study of Mus musculus with 6 samples.

Results

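The HoxA cluster is a row of homeobox genes on mouse chromosome 6, and 9 of its genes could be followed in this data set: Hoxa2, Hoxa3, Hoxa4, Hoxa5, Hoxa7, Hoxa9, Hoxa10, Hoxa11 and Hoxa13. They were taken as every probe set whose annotation gives a single gene symbol made of Hoxa and a number, which yielded 12 probe sets of 22690 on the array and 9 of 12393 named genes. RNA came from pooled mouse embryos of strain c57bl/6 at 9.5 days post coitum, from tissue cut out between the otic placode and the youngest somite after heart and endoderm had been taken off. The 3 control pools were wild-type (Dll3+/+), and the 3 mutant pools were homozygous for Dll3tm1Rbe, also written Dll3neo/neo, an allele of the Notch ligand gene Dll3 present in every cell of the embryo. Both groups shared strain, age and dissection, and each pool was hybridised to 1 Affymetrix MOE430A array. The sources used here do not give the number of embryos in a pool, or say whether pools were matched for sex. The tissue held neural tube, surface ectoderm and lateral mesoderm beside somites, so that fewer cells of a type and less RNA per cell cannot be told apart.

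Hox genes encode homeodomain transcription factors that give segments along the head-to-tail axis their identity, and their order along the chromosome matches the order of their domains in the embryo. Low-numbered genes begin in the hindbrain and pharyngeal arches, middle ones at neck and trunk level, and the highest-numbered ones in the tail bud and limb buds. Some Hox genes are known to be expressed in presomitic tissue in step with the Notch-dependent segmentation clock, in which Dll3 acts.

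The stretches of DNA just before 4 of the genes are shown because they stand for the different behaviours described below: Hoxa5 had the largest difference, Hoxa7 and Hoxa9 were lower as well, and Hoxa13 stayed level in its mean. Each is the 250 bases before the start of the RefSeq gene model (build GRCm38.p6, minus strand, printed 5′ to 3′), at chr6:52204588-52204837, chr6:52218574-52218823, chr6:52227371-52227620 and chr6:52260881-52261130 in this order. Capitals mark matches to TTTATG, the core bound by the Cdx factors, which are activators of trunk Hox genes.
Hoxa5: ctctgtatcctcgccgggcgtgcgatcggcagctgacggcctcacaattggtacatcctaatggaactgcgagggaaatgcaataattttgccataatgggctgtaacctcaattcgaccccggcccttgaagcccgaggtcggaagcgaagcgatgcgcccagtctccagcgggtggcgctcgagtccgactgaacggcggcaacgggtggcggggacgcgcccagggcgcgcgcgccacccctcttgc
Hoxa7: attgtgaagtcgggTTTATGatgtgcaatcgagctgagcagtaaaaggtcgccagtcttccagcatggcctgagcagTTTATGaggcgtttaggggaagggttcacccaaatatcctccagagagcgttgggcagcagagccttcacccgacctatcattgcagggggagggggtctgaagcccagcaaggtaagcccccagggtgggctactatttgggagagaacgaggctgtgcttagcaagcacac
Hoxa9: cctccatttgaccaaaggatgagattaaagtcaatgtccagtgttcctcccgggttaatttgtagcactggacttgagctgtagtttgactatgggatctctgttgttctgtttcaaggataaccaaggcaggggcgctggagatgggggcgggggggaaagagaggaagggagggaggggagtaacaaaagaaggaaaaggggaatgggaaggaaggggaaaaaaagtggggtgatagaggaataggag
Hoxa13: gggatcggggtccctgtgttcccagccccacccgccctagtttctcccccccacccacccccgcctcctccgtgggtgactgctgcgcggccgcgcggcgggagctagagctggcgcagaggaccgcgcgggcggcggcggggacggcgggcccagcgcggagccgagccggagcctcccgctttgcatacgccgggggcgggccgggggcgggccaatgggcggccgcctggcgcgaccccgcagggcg
The array data name no genome build, and the windows were matched to members by gene symbol. Of the 9 members, 8 had a window in the RefSeq table, and Hoxa10 had 2. Hoxa7 was the only one of these 8 with TTTATG on either strand. Its 2 matches begin 236 and 173 bases before the start, and 10.8% of all 32851 windows of this length hold at least 1. The retinoid receptor half-site AGGTCA was in none of the 8, against 14% of all windows, and the HOX-PBX sequence TGATNNAT was in Hoxa2, against 7.68% of all windows, both strands being searched in each case. GC content was 80% before Hoxa13, 63.6% before Hoxa5, 54.8% before Hoxa7 and 49.6% before Hoxa9, with a median of 52.4% over all windows. A match is a description of the letters and no evidence of binding.

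Every value on the array is a ratio of a probe set to its own reference, so levels can be compared between pools and never between genes. In the HoxA cluster 7 of 9 genes had a lower mean in the Dll3 mutant pools and 2 a higher one, with a median log2 difference (mutant minus wild-type) of -0.17. Over all 12393 genes the median was 0.0035, and 48.1% were lower. No HoxA gene passed in limma, where adjusted p was 0.9997 for each of the 9, and 0 of all genes passed (0% of genes called). At an unadjusted p under 0.05, Hoxa9 was the only HoxA gene, on the lower side, against 1.36% of all genes on that side and 2.67% (331 genes) on either. With single pools left out, Hoxa9 kept that level only without mutant pool 3. Hoxa10 alone reached it without mutant pool 1, against 5.1% of all genes under that omission. No HoxA gene reached it without wild-type pool 1. The mutant pools lay wholly below the wild-type pools for 2 of 9 HoxA genes, Hoxa3 and Hoxa9, against 3.49% of all genes. For Hoxa3 this was a near tie, with a log2 level of -0.0214 in wild-type pool 2 and -0.0244 in mutant pool 3. Without mutant pool 1 the median log2 difference of the 9 was -0.094 and 6 were lower, against 45.6% of all genes; without wild-type pool 1 the median was -0.11 and 6 were lower.

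**Figure D1:**
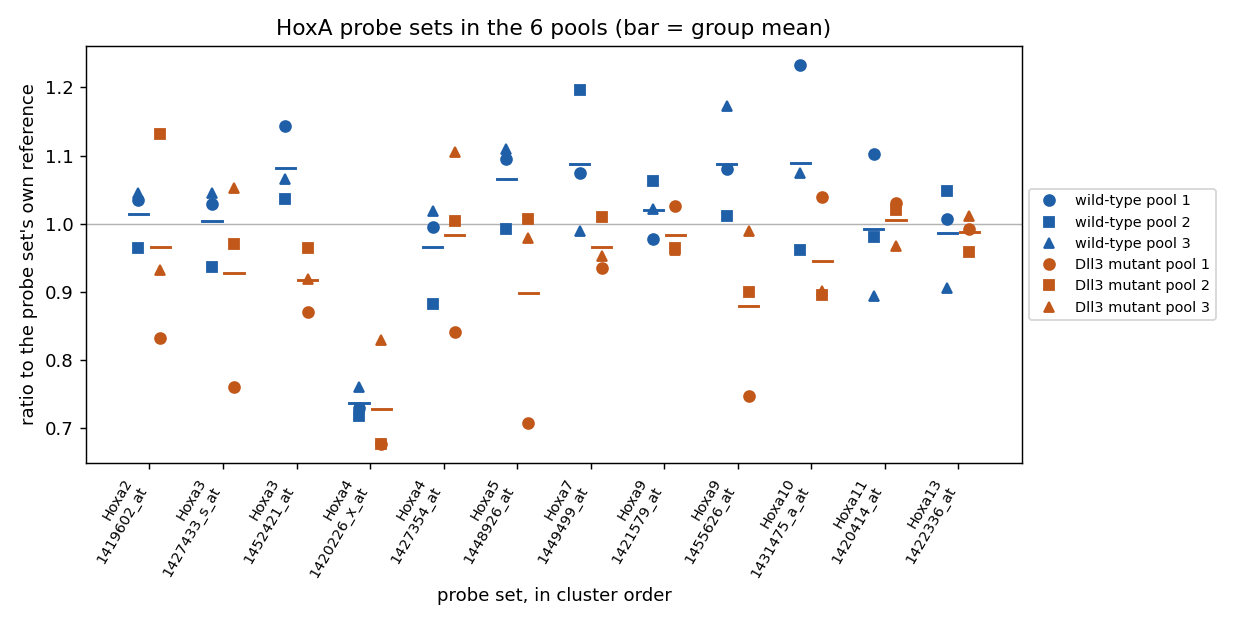
Ratios of the 12 HoxA probe sets in the 3 wild-type and 3 Dll3 mutant pools, in cluster order, on a linear axis that does not begin at 0; short bars are group means. The mutant pools lie below all wild-type pools for 1452421_at of Hoxa3 and 1455626_at of Hoxa9, and mutant pool 1 is at 0.708 for Hoxa5.

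The 3' members, which act in the hindbrain, pharyngeal arches and neck, did not share 1 pattern. Hoxa2, needed for the identity of the second pharyngeal arch, had ratios of 1.035, 0.965 and 1.045 in wild-type pools 1, 2 and 3, and of 0.833, 1.132 and 0.932 in mutant pools 1, 2 and 3. The mutant pools spread to both sides of the wild-type pools. The log2 difference of -0.08 (SE 0.108, 95% interval -0.32 to 0.16) turned to 0.018 without mutant pool 1 and to 0.033 with array weights, which count a pool less the more it departs from its group, so Hoxa2 has no settled direction.

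Hoxa3, which is required for the thymus and parathyroid, was read by 2 probe sets. By 1452421_at its ratios were 1.144, 1.036 and 1.066 in wild-type and 0.871, 0.964 and 0.919 in mutant pools. All mutant pools were lower than all wild-type pools. The means were 1.08 ± 0.0557 (SD, n = 3) and 0.918 ± 0.0465 (SD, n = 3), a log2 difference of -0.24 (SE 0.0874, 95% interval -0.43 to -0.045, limma adjusted p = 0.99996).

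The other Hoxa3 probe set, 1427433_s_at, whose suffix marks probes shared with other transcripts, read 1.029, 0.937 and 1.045 in the wild-type and 0.761, 0.971 and 1.052 in the mutant pools. Here only mutant pool 1 was below the wild-type range, and the log2 difference of -0.12 (SE 0.12) became 0.012 without that pool. As the mean of both probe sets Hoxa3 differed by -0.18 (SE 0.091, 95% interval -0.38 to 0.021), or -0.094 without mutant pool 1.

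Hoxa4, which patterns the neck vertebrae, was flat. Its probe set 1427354_at read 0.996, 0.882 and 1.019 in the wild-type and 0.841, 1.004 and 1.106 in the mutant pools. Its other probe set, 1420226_x_at, read 0.73, 0.719 and 0.761 in the wild-type and 0.678, 0.677 and 0.829 in the mutant pools, and is the only HoxA probe set whose median over the 6 pools, 0.725, was below 1. Both had overlapping groups. The differences of 0.02 (SE 0.113) and -0.023 (SE 0.0999) had opposite signs, and the gene mean of -0.0015 (95% interval -0.22 to 0.21) changed sign in 9 of 16 alternatives.

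The next members along the cluster, Hoxa5, Hoxa7 and Hoxa9, all had a lower mutant mean. Hoxa5, which patterns the cervicothoracic skeleton and the lung, read 1.095, 0.993 and 1.109 in wild-type and 0.708, 1.007 and 0.979 in mutant pools. Mutant pool 1 stood far below the other 5 pools, and mutant pool 2 lay inside the wild-type range. The log2 difference of -0.26 (SE 0.127, 95% interval -0.54 to 0.018, limma adjusted p = 0.9997) was the largest of the 9 genes, and it was -0.10 without mutant pool 1.

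Hoxa7, a gene of the thoracic level with both Cdx-type matches in the sequence above, read 1.075, 1.196 and 0.99 in wild-type and 0.936, 1.01 and 0.953 in mutant pools. The groups overlapped only through wild-type pool 3 and mutant pool 2. The log2 difference was -0.17 (SE 0.0866, 95% interval -0.36 to 0.026), and it was -0.14 without mutant pool 1 and -0.095 (SE 0.091) without wild-type pool 2, the highest pool.

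Hoxa9, which acts at the thoracic to lumbar level, had the smallest limma p of the 9 genes, 0.0352 before adjustment (adjusted p = 0.9997). Its probe set 1455626_at read 1.08, 1.011 and 1.173 in the wild-type and 0.748, 0.9 and 0.989 in the mutant pools. All mutant pools were lower than all wild-type pools, with means of 1.09 ± 0.0813 (SD, n = 3) and 0.879 ± 0.122 (SD, n = 3).

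That probe set differed by -0.31 on the log2 scale (SE 0.113, 95% interval -0.56 to -0.065, limma adjusted p = 0.99996), and by -0.20 (SE 0.102) without mutant pool 1. The other, 1421579_at, read 0.978, 1.063 and 1.022 in the wild-type and 1.026, 0.965 and 0.961 in the mutant pools. Its groups overlapped and its difference was -0.053 (SE 0.0843), which was 0.057 when the sex score described below entered the fit, so the probe sets of Hoxa9 disagree in size. Their mean differed by -0.18 (SE 0.0758, 95% interval -0.35 to -0.016), or -0.14 (SE 0.0807, 95% interval -0.32 to 0.038) without mutant pool 1. Of the 12 HoxA probe sets, the 2 with non-overlapping groups in Hoxa3 and Hoxa9 were also those at an unadjusted p under 0.05. The background was 3.39% of all 22626 tested probe sets for groups apart with the mutant lower, 1.25% for an unadjusted p under 0.05 with the mutant lower, and 0% for the adjusted threshold.

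At the 5' end, Hoxa10 parted from its neighbours Hoxa11 and Hoxa13. Hoxa10, which sets the rib-free lumbar vertebrae, read 1.233, 0.961 and 1.074 in wild-type and 1.039, 0.895 and 0.902 in mutant pools. The groups overlapped through mutant pool 1, the highest of the mutant pools. The log2 difference of -0.20 (SE 0.104, 95% interval -0.43 to 0.03) grew to -0.27 (SE 0.107, 95% interval -0.51 to -0.03, limma adjusted p = 0.90) without that pool, whereas Hoxa5 shrank. It fell to -0.11 (SE 0.104) without wild-type pool 1, the pool in which Hoxa10 was highest, so its size rests on single pools. With mutant pool 1 left out, mutant pools 2 and 3 lay below all wild-type pools for Hoxa3, Hoxa9 and Hoxa10. That is 3 of 9 genes, against 9.94% of all genes without mutant pool 1.

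Hoxa11, a gene of the forearm and sacral level, read 1.102, 0.98 and 0.894 in the wild-type and 1.031, 1.02 and 0.968 in the mutant pools. Hoxa13, which acts in the digits and hindgut, read 1.007, 1.048 and 0.906 in the wild-type and 0.993, 0.958 and 1.011 in the mutant pools. In both genes the mutant pools lay inside the wild-type range. The log2 differences were 0.025 (SE 0.089, 95% interval -0.17 to 0.22) and 0.0028 (SE 0.0799, 95% interval -0.17 to 0.18). Neither sign is settled, since Hoxa13 turned negative with quantile normalization (-0.017) and with pools centred on their medians (-0.0015), and both genes turned negative with array weights (-0.011 and -0.05).

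Hoxa11os, transcribed opposite to Hoxa11 and outside the rule because its name does not end in the number, read 1.219, 1.065 and 0.91 in the wild-type and 1.025, 0.955 and 0.969 in the mutant pools. Like Hoxa11, it was highest in wild-type pool 1 and lowest in wild-type pool 3, and its log2 difference was -0.11 (SE 0.11).

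**Figure D2:**
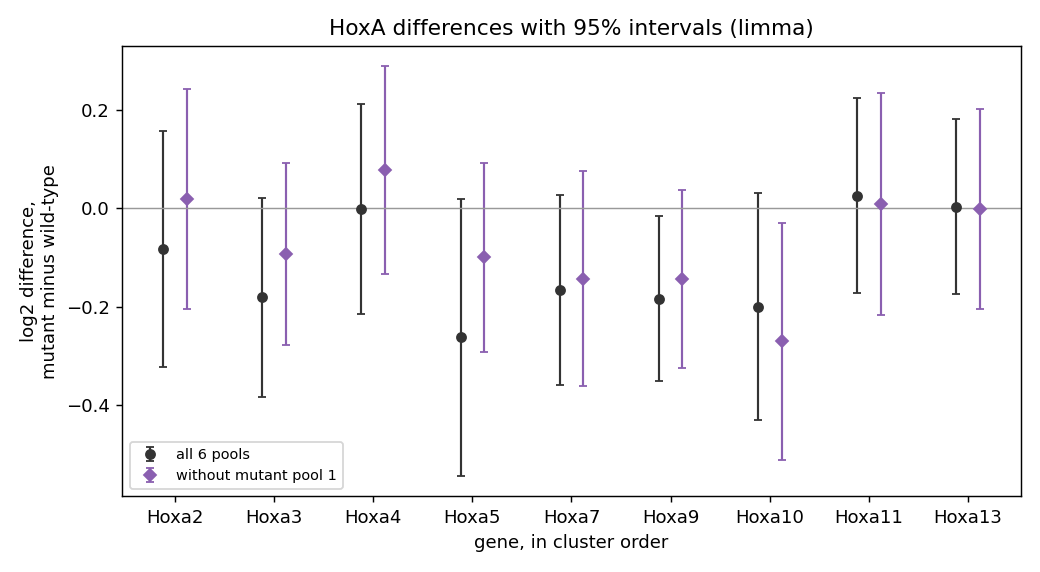
Log2 difference, mutant minus wild-type, for the 9 HoxA genes in cluster order with limma 95% intervals, from all 6 pools (circles) and without mutant pool 1 (diamonds). Hoxa5 moves from -0.26 to -0.10 and Hoxa10 from -0.20 to -0.27 when that pool is left out, and Hoxa11 and Hoxa13 sit near 0 in both.

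The spread between pools differed along the cluster. The SD of the log2 level over the 6 pools was largest for Hoxa5, at 0.236, and smallest for Hoxa13, at 0.0731. The median over the 9 members was 0.131, and over all genes it was 0.105. Mutant pool 1 was the lowest pool for 6 of 9 genes, namely Hoxa2, Hoxa3, Hoxa4, Hoxa5, Hoxa7 and Hoxa9, against 21% of all genes. This count is of gene means, and not every probe set shared it. For Hoxa9, 1421579_at read 1.026 in mutant pool 1, the highest of the mutant pools. For Hoxa4, 1420226_x_at read 0.678 there and 0.677 in mutant pool 2. The 3 genes at the 5' end were not lowest in mutant pool 1, with the lowest value in mutant pool 2 for Hoxa10 and in wild-type pool 3 for Hoxa11 and Hoxa13. Wild-type pool 1 stood to the other side. There 0 of 9 genes were below their own 6-pool mean, against 4 and 3 in wild-type pools 2 and 3. In mutant pools 1, 2 and 3 the counts were 6, 6 and 5. The centred HoxA mean was 0.111, 0.024 and 0.040 in wild-type pools 1, 2 and 3, and -0.147 in mutant pool 1.

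The 4 genes from Hoxa2 to Hoxa5 had a mean log2 level of 0.017, -0.10 and 0.027 in wild-type pools 1, 2 and 3 and of -0.37, -0.034 and -0.055 in mutant pools 1, 2 and 3. Mutant pools 2 and 3 lay within the wild-type range, so the lower mutant mean of these 4 rests on mutant pool 1. For the 3 genes from Hoxa7 to Hoxa10 the levels were 0.149, 0.0843 and 0.0731 in the wild-type and -0.0771, -0.0825 and -0.085 in the mutant pools. These block means were lower in every mutant pool than in every wild-type pool, but the single genes differed. Mutant pool 1 was at -0.095 for Hoxa7, -0.19 for Hoxa9 and 0.055 for Hoxa10. Of these genes only Hoxa9 had all mutant pools below all wild-type pools. The share of such separation among other block means was not computed. For Hoxa11 and Hoxa13 together the levels were 0.0751, 0.0192 and -0.152 in the wild-type and 0.017, -0.0167 and -0.0156 in the mutant pools. These 3 blocks were drawn after the values had been seen and are a description.

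Mutant pool 1 also stood apart in markers of tissue in front of the otic cut. Of 11 measured head and anterior brain markers, 7 were highest in that pool, against 17.9% of all genes, and none was lowest there. Otx2, which specifies forebrain and midbrain, was at a log2 level of 1.14 in mutant pool 1 and between -0.14 and 0.062 in the other 5 pools. Lhx2, a gene of eye and forebrain, was at 1.17 there and between -0.36 and 0.21 elsewhere. Dlx5 (0.75) and En2 (0.50) were highest in the same pool, as were Six6 (0.28), Fezf2 (0.17) and, by a small margin, Six3 (-0.034), whereas En1 (-0.30), Hesx1 (0.14), Rax (0.011) and Lmx1a (0.036) were within the range of the other pools. Lhx2, Dlx5 and En1 are also expressed in the limb bud. The mean of the limb and lateral plate markers was -0.008 in mutant pool 1 and -0.112 to 0.072 in the wild-type pools. That list mixes limb and lateral plate genes, so its mean does not show the share of limb bud. The mean over the 11 markers ranged from -0.17 to 0.0036 in the wild-type pools and from -0.11 to 0.35 in the mutant pools. Ratios cannot show a marker at 0. Whether mutant pool 1 held head tissue, and any part of such tissue in its low HoxA values, was not tested. Without that pool, 7 of the 11 head markers were lower and 4 higher in the mutant pools (median -0.039).

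**Figure D3:**
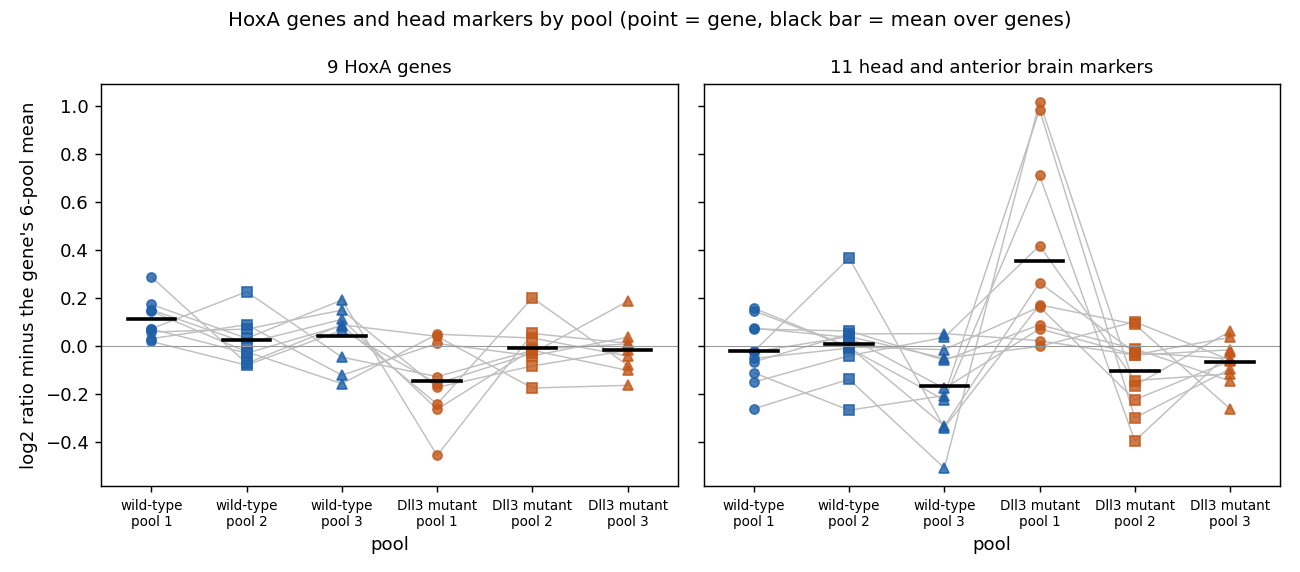
Log2 ratio minus each gene's own mean over the 6 pools, for the 9 HoxA genes (left) and the 11 measured head and anterior brain markers (right); points are genes, thin lines join the values of 1 gene, and black bars are means over genes. The HoxA mean is lowest, at -0.147, in mutant pool 1, the pool in which Otx2 and Lhx2 rise far above the other points.

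Other tissues of the dissection were followed in the same way. Somite markers were lower for 7 of 11 genes (median -0.034), among them Uncx, a gene of the caudal somite part, at -0.998 (SE 0.124, limma adjusted p = 0.116), with a mean level of -0.033 to 0.152 in the wild-type and -0.194 to 0.0663 in the mutant pools, and 5 of the 11 were lowest in mutant pool 1. Tail bud and presomitic markers, a list named for tissue behind the posterior cut, were lower for 8 of 12 (median -0.052). Their mean was 0.0021 to 0.0223 in the wild-type and -0.081 to 0.0286 in the mutant pools. Hindbrain markers were lower for all 4 measured genes (median -0.04), with means of -0.109 to 0.0203 in the wild-type and -0.222 to -0.0316 in the mutant pools. Gbx2 (-0.02, SE 0.165) and Fgf3 (-0.0055, SE 0.0761) were near 0. Hoxb1 (-0.25, SE 0.118) is also counted below among the other Hox genes, and Egr2 (-0.06, SE 0.0845) among the Hox activators. Neural tube markers were lower for 5 of 12 (median 0.013), with means of -0.0773 to 0.099 and -0.115 to 0.0957. Limb and lateral plate markers were lower for 4 of 11 (median 0.025), nephric markers for 2 of 6 (median 0.022), heart markers for 4 of 9 (median 0.0043) and endoderm markers for 5 of 10 (median 0.026). Single genes lay far from these medians. The heart marker Tnnt2 was at 0.29 (SE 0.0999), with every mutant pool above every wild-type pool, and the limb marker Tbx4 at -0.31 (SE 0.124). Their limma p before adjustment was 0.0142 and 0.0323, with 2.67% of all genes under 0.05. Without mutant pool 1 several of these medians moved. Hindbrain markers were then lower for 2 of 4 (median -0.055). The medians turned negative for nephric (-0.056, 4 of 6 lower), heart (-0.047, 5 of 9 lower) and endoderm markers (-0.035, 6 of 10 lower). Those of somite (-0.0063, 7 of 11 lower), tail bud and presomitic (-0.031, 9 of 12 lower), neural tube (0.038, 6 of 12 lower) and limb and lateral plate markers (0.053, 4 of 11 lower) kept their sign. No gene of these lists passed in limma with all pools or without mutant pool 1. Their part in the HoxA differences was not tested. The lists share genes, with Foxa2 and Shh under both neural tube and endoderm markers and Osr1 under both limb and nephric markers.

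The sex mix of the pools moved with genotype. The sex score, which is the log2 level of the X-inactivation RNA Xist minus the mean of the Y-linked genes Eif2s3y, Kdm5d and Uty, was -0.085, -1.48 and -1.73 in the wild-type and 0.0449, 0.814 and 0.729 in the mutant pools. With this score as a covariate all 9 HoxA genes had a negative difference, against 50.4% of all genes. Their median was -0.21, against -0.0013 over all genes. The score was higher in every mutant pool than in every wild-type pool, so it parts the genotypes. Sex mix and genotype therefore cannot be told apart in these pools, and the fit with the score gives no firmer result. With the score in the fit the SE rose from 0.0758 to 0.146 for Hoxa9 and from 0.127 to 0.217 for Hoxa5. The difference of Hoxa9 was -0.18 in both fits, and its unadjusted limma p rose from 0.0352 to 0.252 (adjusted p = 0.99996).

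Among the other clusters, the HoxA median of -0.17 stood beside -0.058 for 9 HoxB genes, -0.10 for 6 HoxC genes and -0.097 for 7 HoxD genes. Of these 22 genes 19 were lower and 3 higher, with 0 past the adjusted threshold in limma and 3 at an unadjusted p under 0.05: Hoxc8 at -0.25 (SE 0.0953), Hoxc9 at -0.28 (SE 0.11) and Hoxd8 at -0.30 (SE 0.113). All 3 were lower, against 1.36% of all genes. Without mutant pool 1 none of them remained at that level and Hoxd13 alone reached it (-0.35, SE 0.097), against 5.1% of all genes under the same omission. The difference between clusters was not tested. Mutant pool 1 was lowest for 6 of 9 HoxB, 3 of 6 HoxC and 2 of 7 HoxD genes. The median of the 22 was -0.088. Without mutant pool 1 it was -0.063, with 14 lower, and without wild-type pool 1 it was -0.052, with 16 lower.

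Within paralog groups, whose members descend from a common ancestral gene, the HoxA values were read against their relatives. Hoxa9 at -0.18 (SE 0.0758) had Hoxb9 at -0.24 (SE 0.118), Hoxc9 at -0.28 (SE 0.11) and Hoxd9 at -0.097 (SE 0.137) beside it, so all 4 members of the group were below 0. Hoxa10 at -0.20 stood beside Hoxd10 at -0.14 (SE 0.107). Hoxa5 at -0.26 was set beside Hoxb5 at -0.058 (SE 0.0829) and Hoxc5 at -0.003 (SE 0.0797), and Hoxa7 at -0.17 beside Hoxb7 at -0.045 (SE 0.115). Differences between paralogs were not tested. In group 13, Hoxa13 at 0.0028 lay between Hoxb13 at 0.091 (SE 0.0733), Hoxc13 at 0.074 (SE 0.0875) and Hoxd13 at -0.18 (SE 0.133).

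**Figure D4:**
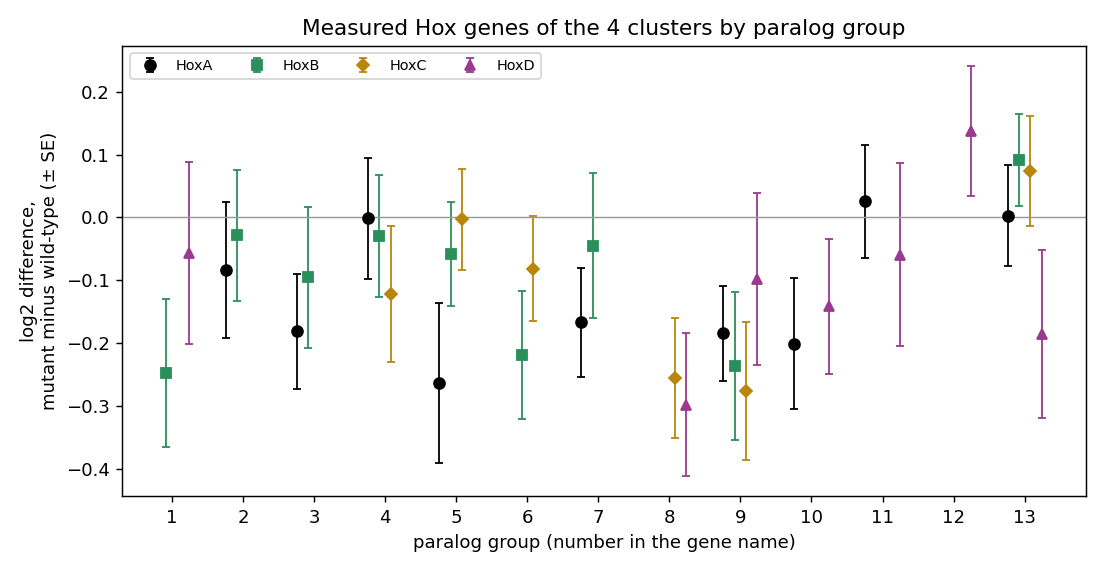
Log2 difference, mutant minus wild-type, with limma SE for the 31 measured Hox genes of the 4 clusters, by paralog group. HoxA genes (black circles) reach -0.26 at group 5, lie between -0.20 and -0.17 at groups 7, 9 and 10, and are near 0 at groups 4, 11 and 13.

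Cofactors and regulators of Hox genes had no member past the adjusted threshold. Of 8 measured cofactors, the TALE homeodomain proteins that bind DNA with Hox proteins, 7 were lower (median -0.066), with Pknox1 at -0.16 (SE 0.095), Pbx3 at -0.17 (SE 0.125) and Meis1 at -0.10 (SE 0.0817). Mutant pool 1 was lowest for 5 of these 8, as for 6 of 9 HoxA genes, and without it 5 of 8 were lower (median -0.035). Of 12 activators and axial signals 7 were lower (median -0.045). Among them Aldh1a2, which makes retinoic acid, was at -0.19 (SE 0.103), Cdx2 at -0.10 (SE 0.0773) and Fgf8 at 0.14 (SE 0.119). This list overlaps with those above. Cdx1, Cdx2, Cdx4, Fgf8, Wnt3a and Cyp26a1 are also counted among the tail bud and presomitic markers. Of 16 chromatin regulators, chiefly Polycomb and Trithorax members, 7 were lower and 9 higher (median 0.021), with the X-linked histone demethylase gene Kdm6a at 0.21 (SE 0.103), Kat6a at 0.12 (SE 0.0807) and Men1 at 0.086 (SE 0.0773). None of these 36 genes had an unadjusted p under 0.05, against 2.67% of all genes. Without mutant pool 1, Kdm6a alone reached it (0.31, SE 0.0957), against 5.1% of all genes. The chromatin regulators then had a median of 0.073 with 11 of 16 higher, and the activators and axial signals one of -0.016 with 7 of 12 lower.

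Genes that neighbour the cluster were flat as a group, with 4 of 8 lower (median 0.0071, or -0.0076 without mutant pool 1). Evx1, next to Hoxa13 and a gene of the tail bud, was at -0.096 (SE 0.0705), with every mutant pool under every wild-type pool, as in 3.49% of all genes. It is also counted among the tail bud and presomitic markers. Skap2, on the other side of the cluster, was at -0.11 (SE 0.0976), and the more distant Tax1bp1 at 0.076 (SE 0.0776).

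Outside the Hox family, 5 genes were nearest to the mean HoxA profile by the root mean square difference of centred log2 values over the 6 pools. They were Exosc2, a subunit of the RNA exosome (0.0218), the phosphatase gene Ctdspl (0.0231), the motor neuron regulator Lhx3 (0.0242), Cpsf4 of the polyadenylation machinery (0.0267) and Tceanc2 (0.0271). The median over all genes was 0.122. The HoxA genes themselves lay between 0.0593 (Hoxa3) and 0.145 (Hoxa5) from their own mean, to which each contributes. The 5 genes were picked as the nearest, so no comparison of their distances with those of the members is drawn.

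Of the array as a whole, 22626 probe sets were tested and 0 passed the adjusted threshold in limma, with 595 at an unadjusted p under 0.05. Dll3, the targeted gene, did not part the genotypes: its single probe set read 0.96, 1.004 and 1.028 in the wild-type and 0.996, 1.013 and 0.941 in the mutant pools (log2 difference -0.021, SE 0.0837). Where it lies in relation to the neo insertion is not stated in the labels, so it cannot serve as a check of genotype. Precision is limited by the number of arrays. A gene's log2 difference had a median SE of 0.0869, and for 3 pools against 3 the smallest two-sided p of an exact permutation test is 0.1.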

How the data were processed

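RNA from 6 pools, 3 per genotype, was measured on 6 Affymetrix MOE430A arrays, 1 per pool. The authors deposited a table of 22690 probe sets whose entries were read as linear ratios, each against a reference of its own probe set, since the median over the pools was 1 (within 0.0015) in 93.4% of rows and lower in 1497. The submitters' processing notes list RMA and MAS5 with neither version nor role. Scaling and genome build are not given in the sources used here.

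The 64 control probe sets were left out. Log2 ratios of 22626 probe sets, without pseudocount, were fitted with limma 3.58.1 under R 4.3.3: lmFit, then eBayes with genotype as the sole term and no variance trend, two-sided, at a Benjamini-Hochberg adjusted p under 0.05. The same fit was run on 12393 genes, each the mean of its probe sets. By the platform annotation 20380 probe sets have 1 gene, 691 have several, 1555 have no name, and 20351 matched RefSeq gene identifiers (GRCm38.p6). Where labels do not state separate litters, p-values measure only the spread between these pools. The script was tested on simulated data. Figures were drawn with matplotlib 3.10.9.

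The text names every HoxA probe set, Dll3, the 3 genes of smallest p in the lists of cofactors, regulators, flanking genes and other Hox genes, and the 5 genes of most similar profile. Paralogs, Hoxa11os and single head markers were picked out after their values were seen. Members and lists were chosen with earlier results of these data known. The alternatives tried were a replicate block, array weights, a variance trend, median centring, quantile normalization, leaving out single pools, leaving out _x_at and _s_at probe sets or rows of median below 1, a pseudocount of 0.1, the sex score as covariate and 1 probe set per gene, that of largest spread.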

Additional observations from a re-analysis of the deposited data

How the results depend on the processing

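No HoxA gene passed an adjusted p of 0.05 in limma in any of the 16 alternatives, and the smallest adjusted p was 0.495 (Hoxa7). Hoxa3, Hoxa5, Hoxa7, Hoxa9 and Hoxa10 stayed negative in all 16 at gene level. With pools left out they ranged from -0.23 to -0.094, -0.35 to -0.10, -0.23 to -0.095, -0.22 to -0.14 and -0.29 to -0.11 in this order. The median of the 9 genes was -0.094 to -0.19 with single pools left out, and 6 to 8 genes were lower. The count of genes past the threshold was 1 (Uncx) with the replicate block, the variance trend or array weights, and 0 to 1 (Xist, without wild-type replicate 1) with pools left out. For probe sets it was 1 (Uncx) with the replicate block or array weights, and 0 to 1 with pools left out. With the replicate number as a block, 4 HoxA genes had an unadjusted p under 0.05 in place of 1, and 617 of all genes in place of 331. That count of all genes was 1200 with array weights and 156 with the sex score. Deviations of same-numbered pools correlated at 0.37, -0.025 and 0.37 for numbers 1, 2 and 3. Where the numbers differed, the correlation lay between -0.43 and 0.197. Numbers 1 and 3 were thus above every unlike pair, and number 2 was within their range. The main fit leaves the numbers out, and whether they mark paired pools was not tested.

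Directions that turned are these, and the cause was not tested. With array weights Hoxa2 was at 0.033 (probe set 0.019), Hoxa4 at 0.033, Hoxa11 at -0.011 (probe set -0.010) and Hoxa13 at -0.050 (probe set -0.045). With quantile normalization Hoxa4 was at 0.0093 and Hoxa13 at -0.017, and with median centring Hoxa13 was at -0.0015. Hoxa4 was at 0.0204 without _x_at and _s_at probe sets, without rows of a median below 1, and by its probe set of largest spread. With the sex score Hoxa11 was at -0.17, Hoxa13 at -0.052, Hoxa9 by 1421579_at at 0.057 and Hoxa4 by 1427354_at at -0.15. With pools left out Hoxa2 ranged from -0.20 to 0.018, Hoxa4 from -0.095 to 0.077, Hoxa11 from -0.047 to 0.10 and Hoxa13 from -0.058 to 0.047. By probe set, 1420226_x_at ranged from -0.12 to 0.026, 1427354_at from -0.069 to 0.13 and 1427433_s_at from -0.22 to 0.012. Ratios keep no signal over background, so whether a probe set is dim could not be read.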
